A study of Mus musculus with 6 samples.

Results

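The respiratory chain is built from 2 genomes, and its transcripts were followed here in 6 libraries of lung type 2 innate lymphoid cells (ILC2s), 3 from WT mice and 3 from mice that lack CD48. Members were chosen by gene name: columns beginning with mt-Nd, mt-Co, mt-Cytb or mt-Atp for the mitochondrial genome, and Ndufa, Ndufb, Ndufc, Ndufs, Ndufv, Uqcr, Cox4 to Cox8 or Atp5, plus Sdha, Sdhb, Sdhc, Sdhd, Cycs and Cyc1, for the nucleus. The rule found 108 of 17438 gene columns. They are 13 mitochondrially encoded subunits, 87 nuclear-encoded subunits and 8 complex I assembly factors (Ndufaf1 to Ndufaf8), which share a prefix with the subunits and are described apart. A further 11 names ending in -ps were left out. Ndufa4, named after complex I, was placed in complex IV. Ndufb4c, Ndufa11b, Ndufs6b and Cox6c2 are processed pseudogenes in the annotation, and the rule on names counts them among the 87.

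ILC2s are tissue lymphocytes that make type 2 cytokines such as IL-5 and IL-13 when epithelial alarmins such as IL-33 reach them, and CD48 is a surface protein of the SLAM family. By the labels, the WT group and the group with genotype B6.129S4-Cd48tm1Rsr/EpaulJ were both of strain CB57BL/6, and both were treated with IL-33. The cells were sorted from lung and cultured, and 10 pg of RNA per sample was amplified with the SMARTer Ultra Low Input kit. The design text speaks of duplicates, while 3 samples per genotype were analysed, and neither the age of the mice nor whether the 3 samples came from separate animals is given, so p-values here speak of variation among the samples in hand, part of which may be technical.

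Oxidative phosphorylation passes electrons from NADH (complex I) and succinate (complex II) through complex III and cytochrome c to oxygen (complex IV), and the proton gradient that results drives ATP synthase (complex V). Complexes I, III, IV and V combine subunits of both genomes, and complex II is nuclear throughout. The mitochondrial genome is transcribed as long polycistronic precursors that are cut into separate RNAs, while each nuclear subunit has a promoter of its own, where factors such as NRF1 and ETS-family proteins are known to bind.

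The packing of the mitochondrial genome decides how reads can be assigned to its genes, so the windows in which coding sequences run into each other are shown, with the shared bases in capitals and 15 flanking bases on either side (GRCm38, plus strand, mitochondrial chromosome M). The end of mt-Atp8 and the start of mt-Atp6 share 43 bases, and the end of mt-Nd4l and the start of mt-Nd4 share 7.

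mt-Atp8 and mt-Atp6, chrM:7912-7984: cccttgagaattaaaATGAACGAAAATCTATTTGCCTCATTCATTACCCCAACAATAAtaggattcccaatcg

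mt-Nd4l and mt-Nd4, chrM:10152-10188: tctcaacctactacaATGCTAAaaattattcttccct

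On the nuclear side, 68 of the 87 subunits matched RefSeq promoter windows (GRCm38.p6; 250 bases before to 50 after the start), giving 73 windows. Each of 5 motifs was searched on both strands, and no motif contains another. The core of the NRF1 consensus, with any base at its variable position, lay in 24.7% of the subunit windows and 4.6% of all 32851 windows. Matches that equal their own reverse complement, the form searched first, lay in 6.85% against 0.971%. The ETS letters CCGGAAG lay in 23.3% against 8.86%, the YY1 letters AAGATGGCG in 9.59% against 1.4%, the ERR letters TCAAGGTCA in 2.74% against 0.423%, and the CRE letters TGACGTCA in 6.85% against 1.79%. NRF1 matches were in the windows of 17 subunits, Atp5g2, Atp5g3, Sdha and Uqcrc1 among them. The 250 bases before the start of Cox6a1 are shown as an example that was picked after the matches were seen, because it holds both NRF1 and ETS matches (capitals). The windows of Atp5b and Ndufa4, which were looked at in the same way, held none of the 5 motifs.

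Cox6a1, chr5:115348959-115349208, minus strand: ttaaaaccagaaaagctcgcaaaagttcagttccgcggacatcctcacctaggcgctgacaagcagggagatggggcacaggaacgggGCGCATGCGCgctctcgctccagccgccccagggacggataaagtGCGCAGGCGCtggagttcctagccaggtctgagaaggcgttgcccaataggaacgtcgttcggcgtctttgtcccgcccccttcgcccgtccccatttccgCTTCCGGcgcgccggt

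Library totals ran from 14928614 to 27450383 counts. Cd48 itself was measured at 58.1, 46.5 and 41.5 CPM (counts scaled to the library size) in the 3 WT libraries in order and at 4.51, 5.59 and 4.40 CPM in the KO libraries, a log2 fold change of -3.33 (SE 0.20, edgeR adjusted p = 0.00285), or -3.18 (SE 0.15, edgeR adjusted p = 3.51e-07) without WT1. The ILC2 markers Gata3 and Il1rl1 were present in every library, and the 13 ILC2 markers summed to 16177, 12837 and 12469 CPM in WT and to 14164 to 14978 CPM in KO, so that WT2 and WT3 lay below every KO library and WT1 above. WT1 stood apart from the other libraries: limma gave it a quality weight of 0.0919, against 1.08 to 2.36 for the other 5. The fold changes and the main counts are therefore given with all 6 libraries and again without WT1.

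WT1 stood apart in the respiratory chain as well, and in opposite directions for the 2 genomes. It was the lowest of the 6 libraries for 13 of 13 mitochondrially encoded genes, where 39.5% of all tested genes had WT1 lowest. It was the highest for 72 of the 83 tested nuclear-encoded subunits, where 36.8% of all tested genes had WT1 highest. The log2 ratio of WT1 to the mean of WT2 and WT3 had a median of -1.32 over 12 mitochondrially encoded genes, from -2.70 (mt-Nd3) to -0.30 (mt-Nd2). Over the nuclear-encoded subunits the median was 0.61, from -0.78 (Atp5b) to 1.26 (Ndufa12). Cytochrome c (Cycs), the electron carrier between complexes III and IV, stood at 1505 CPM in WT1, against 679 for WT2 and 620 for WT3. Atp5b, the catalytic beta subunit of ATP synthase, ran the other way, at 1062, 1808 and 1826 CPM.

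The WT1 ratio of the nuclear-encoded subunits varied with the length of the principal transcript. Its median was 0.65 for 37 transcripts under 800 bases, 0.64 for 25 of 800 to 1600 bases and 0.24 for 17 longer ones, with a Spearman rho of -0.289 over these 79 genes, which share the same libraries. The rho was -0.336 with the shortest principal transcript of each gene and -0.21 with its longest annotated transcript. The part of length in the WT1 difference was not tested. The 12 mitochondrially encoded genes lay below 0 at every length, as the plot of the WT1 ratio against transcript length shows.

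**Figure D1:**
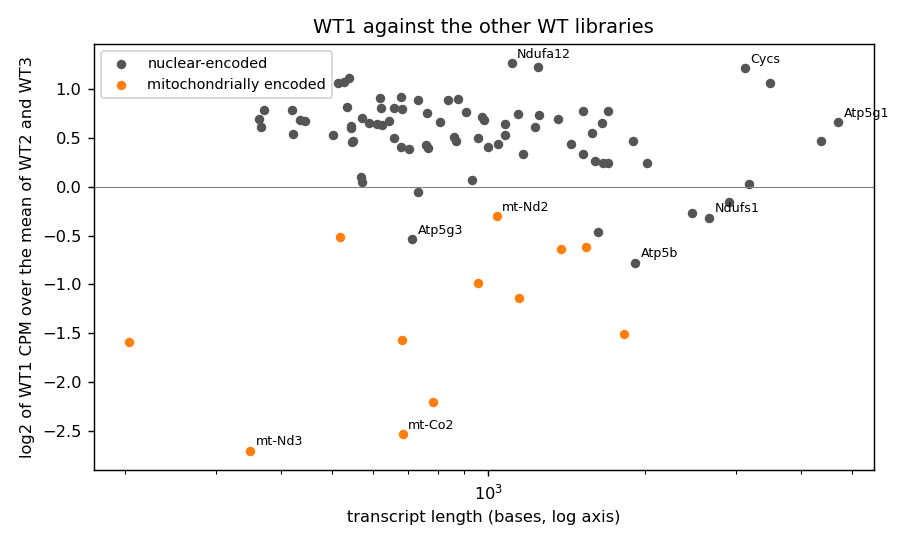
The log2 ratio of CPM in WT1 to the mean of WT2 and WT3 (vertical axis) against the length of the principal transcript in bases (log axis), for the 79 nuclear-encoded (grey) and 12 mitochondrially encoded (orange) subunits with a mean of at least 10 CPM. The orange points all lie below 0, from -2.70 to -0.30, and most grey points lie above it.

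The 13 mitochondrially encoded transcripts were all higher on average in the KO libraries, but no member passed the test with all 6 libraries. Their log2 fold changes, KO against WT, had a median of 0.64 and ran from 0.38 to 2.63, and all 13 were positive (49.5% of all tested genes). The 83 tested nuclear-encoded subunits had a median of -0.29 (from -0.62 to 0.47, 9 positive and 74 negative, where 50.5% of all tested genes were negative), and all tested genes had a median near 0. With edgeR's quasi-likelihood test and Benjamini-Hochberg adjustment, 0 of 104 tested members were called, against 4 of 13317 genes (0.03%). DESeq2 called 0 members among 102 genes (0.726%), and limma-voom with weights for sample quality had 95 calls (0.713%), again with 0 members. At an unadjusted p under 0.05, 5 mitochondrially encoded genes were higher (2.94% of all genes) and 1 nuclear-encoded subunit was lower (3.95% of all genes).

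Without WT1, mt-Cytb and mt-Nd1 were called higher in KO, and the distance between the genomes was smaller. The edgeR fit of 3 KO against 2 WT libraries called 248 of 13643 genes (1.82%), of which 159 were higher (1.17%). The mitochondrially encoded genes had a median log2 fold change of 0.35 (from 0.21 to 2.09, all 13 positive, against 50.2% of all genes), and 10 of 13 were higher at an unadjusted p under 0.05 (8.07% of all genes). The nuclear-encoded subunits had a median of -0.05 (from -0.28 to 0.47, 22 positive and 61 negative, against 49.8% negative over all genes), with 0 called and 4 lower at an unadjusted p under 0.05 (5.6% of all genes). The ends of this range are members with few counts, the pseudogene Ndufb4c (133 in all, SE 0.48) and Cox6a2 (162 in all, SE 0.39). Cox6a2 is also the upper end with all libraries. The difference between the genomes' medians was 0.93 with all libraries and 0.41 without WT1. DESeq2 without WT1 called 7 mitochondrially encoded genes (mt-Atp6, mt-Co1, mt-Cytb, mt-Nd1, mt-Nd4, mt-Nd4l and mt-Nd5) among 413 genes (2.81%). A length trend in the offsets gave 4 called (1.67% of all genes) and the replicate block 6 (4.18%). This block pairs samples by number. Without WT1, KO1 has no partner there, and the fold changes of the block rest on WT2, WT3, KO2 and KO3. Leaving out a further library changed the number called by edgeR to 4 for WT2 (0.622% of all genes), 1 for WT3 (0.991%), 5 for KO1 (3.82%), 0 for KO2 (0.539%) and 1 for KO3 (0.483%). The lone WT library left in the first and second of these is assumed to vary like the KO group.

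**Figure D2:**
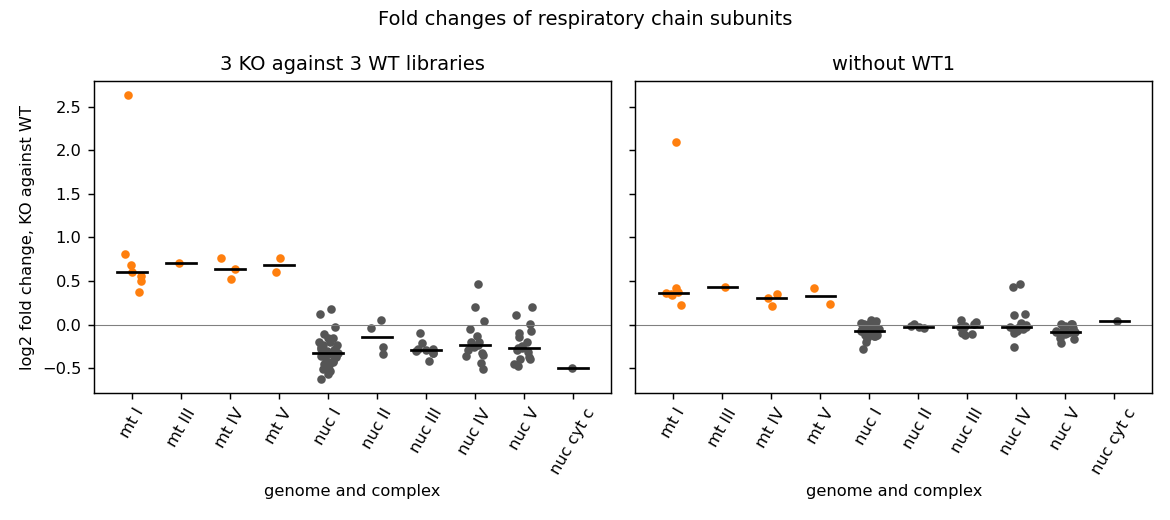
The log2 fold change, KO against WT (vertical axis), of each tested subunit by genome and complex (mt, mitochondrially encoded, orange; nuc, nuclear-encoded, grey; cyt c, cytochrome c), with the median of each group as a black bar. The left panel has all 6 libraries and the right panel leaves out WT1: the orange medians lie above 0 in both. The grey medians are -0.32, -0.15, -0.29, -0.23 and -0.27 for complexes I to V and -0.49 for cytochrome c on the left, and -0.07, -0.02, -0.03, -0.03, -0.08 and 0.04 on the right.

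The mitochondrially encoded subunits of complex I, the NADH dehydrogenase, are the 7 membrane-arm proteins ND1 to ND6 and ND4L. mt-Nd1 (GRCm38 chrM:2751-3707) was measured at 399, 829 and 755 CPM in the WT libraries in order and at 925, 1026 and 1079 CPM in the KO libraries. The groups did not overlap, and WT1 was far below the rest. Its log2 fold change was 0.61 (SE 0.26, edgeR adjusted p = 0.690) with all libraries and 0.36 (SE 0.07, edgeR adjusted p = 0.0311) without WT1. mt-Nd4 was measured at 154, 271 and 207 CPM in WT and 292, 322 and 318 CPM in KO, again without overlap. Its log2 fold changes were 0.56 (SE 0.21) with all libraries and 0.38 (SE 0.11) without WT1. mt-Nd2 and mt-Nd5 also had every KO library above every WT library, with values of 0.50 (SE 0.17) and 0.42 (SE 0.13) for mt-Nd2 and 0.68 (SE 0.38) and 0.34 (SE 0.09) for mt-Nd5.

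mt-Nd3, mt-Nd6 and mt-Nd4l differed from the others. mt-Nd3 was measured at 4.88, 39.4 and 24.1 CPM in WT and 35.2, 45.3 and 39.6 CPM in KO, so that KO1 lay below WT2, and had log2 fold changes of 0.81 (SE 0.62) and 0.35 (SE 0.21). mt-Nd6, the single protein encoded on the light strand, was measured at 25.5, 41.7 and 31.3 CPM in WT and 42.2, 37.7 and 48.0 CPM in KO, and KO2 lay below WT2. For mt-Nd6 the fold changes were 0.38 (SE 0.21) and 0.23 (SE 0.14). Its bases, chrM:13552-14070, overlap those of mt-Nd5 on the opposite strand, chrM:11742-13565, only at the edge. Reads of the shared bases cannot be told apart without strand. mt-Nd4l had 0, 2 and 28 counts in WT and 34, 53 and 50 in KO. Its log2 fold changes of 2.63 (SE 0.94) with all libraries and 2.09 (SE 0.57) without WT1 rest on these low counts, and most reads of its sequence were counted in a nuclear copy.

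**Figure D3:**
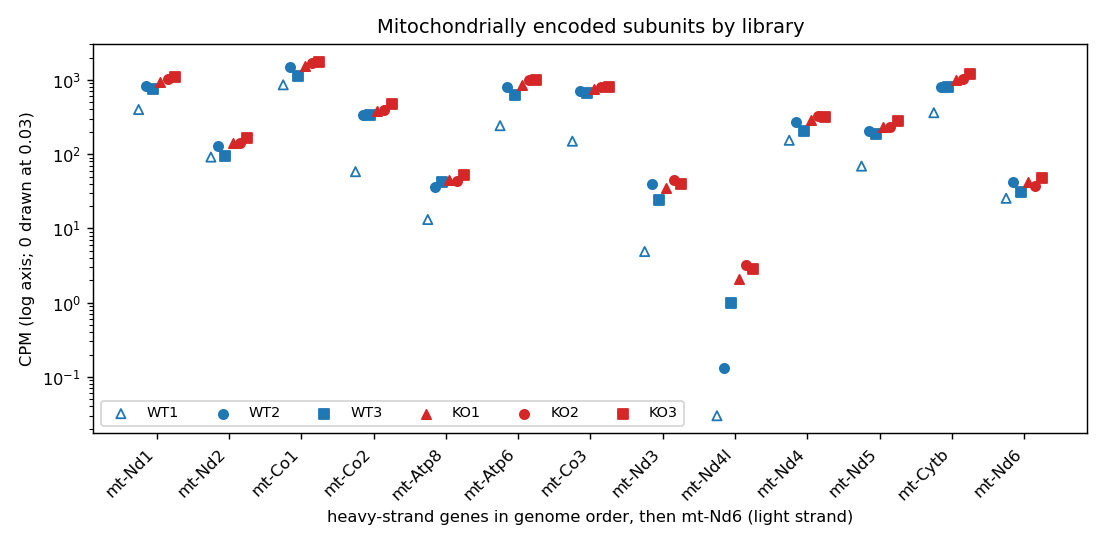
CPM (log axis) of the 13 mitochondrially encoded subunits in each library; blue marks WT and red KO, open triangles are WT1, and a value of 0 (mt-Nd4l in WT1) is drawn at 0.03. WT1 is the lowest point for every gene, and the red points lie above the blue ones except for mt-Nd3 and mt-Nd6.

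The nuclear-encoded side of complex I has 39 members, of which 37 were tested. Their median log2 fold change was -0.32 with all libraries and -0.07 without WT1, and none was called. The 7 core subunits that carry the redox centres had medians of -0.15 and -0.05. The accessory subunits had medians of -0.32 and -0.07. WT1 was highest for 29 of 30 of them (all but the pseudogene Ndufb4c), against 5 of 7 core subunits. Ndufa12, an accessory subunit, showed this most: its WT libraries stood at 252, 106 and 105 CPM in order, and its KO libraries at 95.3, 103 and 103 CPM. All KO libraries lay below all WT libraries, and the log2 fold change was -0.62 (SE 0.35) with all libraries and -0.06 (SE 0.08) without WT1. Per kilobase of transcript, Ndufa1 and Ndufb8 had the highest nuclear-encoded levels of the complex without WT1, at 368 and 280.0 CPM per kilobase, against 965 for mt-Nd1. With the longest annotated transcript in place of the principal one, Ndufb8 was no longer among the 3 highest of these.

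The 8 assembly factors, which help build complex I and are not part of it, had medians of -0.28 and -0.05, with none called. Ndufaf4 had the largest positive value, 0.21 (SE 0.16) with all libraries and 0.30 (SE 0.13) without WT1.

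Complex II, succinate dehydrogenase, served as the wholly nuclear complex. Sdha, its flavoprotein, was measured at 392, 439 and 439 CPM in WT and 409, 466 and 451 CPM in KO. The groups overlapped, with a log2 fold change of 0.06 (SE 0.11) with all libraries and 0.01 (SE 0.06) without WT1. Sdhb, the iron-sulfur subunit, was measured at 552 CPM in WT1 and between 310 and 334 CPM in the other libraries. The 4 subunits ran from -0.33 to 0.06 with all libraries and from -0.04 to 0.01 without WT1.

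Complex III, the cytochrome bc1 complex, takes cytochrome b from the mitochondrial genome. mt-Cytb (GRCm38 chrM:14145-15288) was measured at 362, 800 and 791 CPM in WT and 992, 1013 and 1192 CPM in KO, without overlap. Its log2 fold change was 0.71 (SE 0.30, edgeR adjusted p = 0.690) with all libraries and 0.43 (SE 0.08, edgeR adjusted p = 0.030) without WT1, the larger of the values called there. Its 9 nuclear-encoded partners had medians of -0.29 and -0.03. Uqcrc1, a core protein, was measured at 692, 448 and 436 CPM in WT and 410, 433 and 451 CPM in KO, and the groups overlapped. Cyc1, cytochrome c1, ran from 202 to 269 CPM over the 6 libraries.

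Complex IV, cytochrome c oxidase, has its 3 catalytic-core subunits on the mitochondrial genome. mt-Co1 was measured at 859, 1491 and 1144 CPM in WT and 1550, 1706 and 1760 CPM in KO, without overlap. The log2 fold change of mt-Co1 was 0.52 (SE 0.20, edgeR adjusted p = 0.690) with all libraries and 0.35 (SE 0.12, edgeR adjusted p = 0.309) without WT1. mt-Co2 and mt-Co3 were at 58.1 and 150 CPM in WT1, against 332 to 341 and 673 to 702 CPM in WT2 and WT3. In KO they ran from 376 to 478 and from 748 to 815 CPM. mt-Co2 had log2 fold changes of 0.77 (SE 0.58) with all libraries and 0.31 (SE 0.10) without WT1, and mt-Co3 of 0.64 (SE 0.51) and 0.21 (SE 0.06), neither called.

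Among the nuclear-encoded subunits of complex IV, Ndufa4 had the lowest p-value of any nuclear member. It was measured at 230, 147 and 147 CPM in WT and 113, 132 and 122 CPM in KO, and every KO library lay below every WT library. Its log2 fold change was -0.51 (SE 0.20, edgeR adjusted p = 0.690) with all libraries and -0.26 (SE 0.08, edgeR adjusted p = 0.135) without WT1, so it was not called. Paralogues of the regulatory subunits were unequal in every library. Per length, Cox4i1 made up 99.9% to 100% of the Cox4 pair, Cox6a1 99.4% to 99.7% of the Cox6a pair and Cox6b1 99.6% to 99.9% of the Cox6b pair. Cox7a2 made up 80.7% to 83.8% of its group and Cox7a2l, a supercomplex factor, 15.8% to 18.4%, or 23.6% to 27% by CPM with no length. The heart and muscle forms Cox6a2 and Cox7a1 were under 2 CPM throughout, and Cox4i2, with 11 counts in all, failed the filter on low counts. The other members that failed it were Cox6c2 (39 counts), Ndufs6b (30) and Ndufa11b (15).

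In complex V, mt-Atp6 and mt-Atp8 encode subunits of the membrane part. mt-Atp6 was measured at 242, 806 and 632 CPM in WT and 859, 1005 and 1009 CPM in KO, and mt-Atp8 at 13.2, 36.5 and 42.7 CPM in WT and 44.4, 44.1 and 52.2 CPM in KO. The groups did not overlap for either. The log2 fold changes were 0.77 (SE 0.40) and 0.42 (SE 0.13) for mt-Atp6 and 0.60 (SE 0.40) and 0.24 (SE 0.12) for mt-Atp8, neither called by edgeR, and the reads of the 43 shared bases shown above could have been counted in either gene. The 17 nuclear-encoded subunits had medians of -0.27 and -0.08. Of the F1 part, Atp5b was measured at 1711, 1826 and 1852 CPM in KO and had log2 fold changes of 0.20 (SE 0.21) with all libraries and -0.01 (SE 0.05) without WT1.

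Subunit c, the rotor ring, comes from 3 genes whose mature proteins are alike. Their shares depended on the length taken for Atp5g1, whose principal transcripts run from 596 to 4715 bases. Atp5g1 made up 5.37% to 12.1% of their summed level with the longest of these, 28.6% to 48.6% with the shortest principal transcript of each gene and 27.2% to 47.6% by CPM with no length. Atp5g3 made up 67.2% to 78.2%, 34% to 52.5% and 39.9% to 59.5% in the same order. Under each of these lengths WT1 had the lowest share of Atp5g3 and the highest of Atp5g1. Atp5g1 was measured at 324, 203 and 206 CPM in WT and 167, 179 and 183 CPM in KO, without overlap. This gave a log2 fold change of -0.47 (SE 0.20, edgeR adjusted p = 0.690) with all libraries and -0.21 (SE 0.07, edgeR adjusted p = 0.158) without WT1. Ndufb7 and Atp5h, named after their values were seen, complete the 4 nuclear-encoded subunits at an unadjusted p under 0.05 without WT1, at -0.20 (SE 0.08) and -0.15 (SE 0.06).

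Cycs, the soluble carrier, was measured at 627, 705 and 668 CPM in KO, within the range of WT2 and WT3 or just above it. Cycs had a log2 fold change of -0.49 (SE 0.34) with all libraries and 0.04 (SE 0.06) without WT1, so its sign turned on WT1. Gm10053, on chromosome 19, is 99.9% identical to it over 946 bases and held 9424 counts beside the 82652 of Cycs.

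Counted by separation alone, 11 of 13 mitochondrially encoded genes had every KO library above every WT library (10.2% of all genes), and the same number had every KO library above WT2 and WT3 (15.8%). Of the nuclear-encoded subunits, 21 had every KO library below every WT library (9.11%), 22 had every KO library below WT2 and WT3 (14.3%), and 1, Cox6a2, had KO above WT.

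Summed over the genome, the mitochondrially encoded transcripts came to 2428, 5687 and 4920 CPM in WT and 6241, 6788 and 7236 CPM in KO. The nuclear-encoded subunits came to 19711, 14911 and 14488 CPM in WT and 13505, 14698 and 14516 CPM in KO. The ratio of these sums was 0.123, 0.381 and 0.340 in WT and 0.462, 0.462 and 0.498 in KO. Counts assigned to nuclear copies of mitochondrial genes, described below, are not in these sums. Every KO library lay above every WT library, and WT1 lay far below the rest. The KO mean was 0.474 ± 0.0211 (SD, n = 3), against 0.281 ± 0.139 (SD, n = 3) for all WT libraries and 0.361 ± 0.0296 (SD, n = 2) for WT2 and WT3. The ratio in KO over that in WT2 and WT3 was 1.33 in complex I, 1.37 in complex III, 1.28 in complex IV and 1.38 in complex V. In bulk RNA, fewer cells of a type and less RNA per cell cannot be told apart, and CPM are shares of a library.

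**Figure D4:**
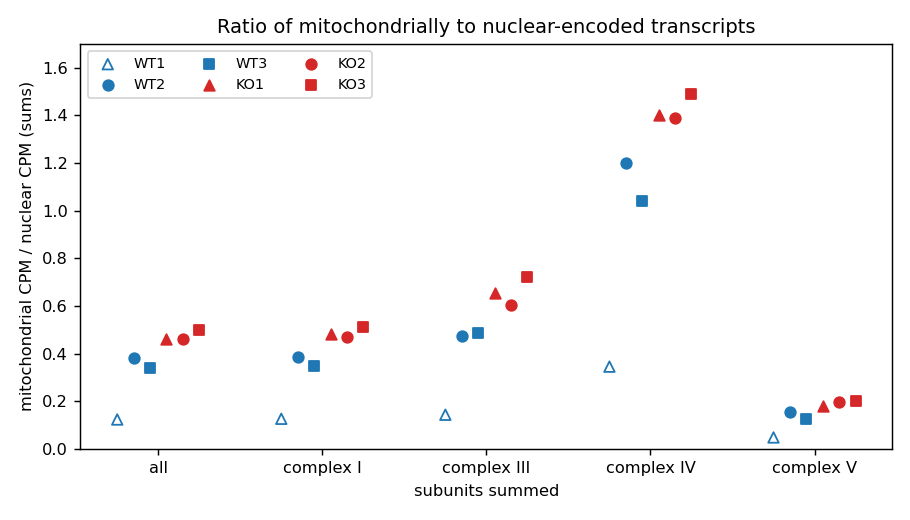
Summed CPM of the mitochondrially encoded subunits divided by summed CPM of the nuclear-encoded subunits (vertical axis, from 0), over all subunits and within each complex that has both, in each library. Counts in nuclear copies of mitochondrial genes are left out. The KO points (red) lie above the WT points (blue) in every column, and WT1 (open triangle) is lowest, at 0.123 for all subunits.

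A stretch of chromosome 1 (GRCm38 chr1:24611535-24616197, minus strand) holds annotated pseudogenes that are near-exact copies of all or part of 7 mitochondrial genes. Much of the signal was counted there. Gm10925 is 100% identical to mt-Atp6 and held 42.1% of the counts of the pair. Gm28661 held 58.1% of its pair with mt-Co2, Gm28437 60.7% with mt-Co3, Gm10222 86.2% with mt-Nd4l and Gm28438 23.6% with mt-Nd3. Gm28439, which covers only 63.6% of mt-Nd4, held 3.68% of that pair. Reads of such pairs cannot be assigned by sequence, so the separate values of these genes are uncertain. mt-Nd1 and mt-Cytb, the genes called without WT1, had no near-copy by this search, nor did mt-Nd6 and mt-Atp8. Off chromosome 1 it found less exact copies (95.2% to 97.6% identical). On chromosome 2 these were Gm13340 of mt-Co1 (3896 counts), Gm13341 of mt-Co2 (1132) and Gm13339 of part of mt-Nd2 (410). On chromosome 13 it was Gm4076 of part of mt-Nd5 (122 counts). The search covered annotated transcripts only, so bases of chromosome 1 between the annotated copies were not searched. mt-Atp8 lies between mt-Co2 and mt-Atp6, which both have copies there, and whether it has a copy too was not tested.

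The copies of whole genes had fold changes of the same sign as their mitochondrial partners. Gm10925 was measured at 181, 516 and 510 CPM in WT and 678, 632 and 750 CPM in KO. Without WT1, edgeR called Gm10925 (0.42, SE 0.07, adjusted p = 0.00981), Gm28661 (0.38, SE 0.07, adjusted p = 0.0241) and Gm28437 (0.26, SE 0.05, adjusted p = 0.0176) higher in KO. None was called with all libraries. Gm29216, which matches 31.3% of mt-Co1, ran the other way, at 241, 223 and 202 CPM in WT and 173, 167 and 187 CPM in KO, with a log2 fold change of -0.27 (SE 0.07, edgeR adjusted p = 0.0854) without WT1.

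Summing the copies into their partners kept the direction of all 13 genes. The median log2 fold change was 0.68 with all libraries, with 0 members called (0.0301% of all genes). Without WT1 it was 0.36, and mt-Atp6, mt-Co3, mt-Cytb and mt-Nd1 were called (1.81% of all genes). The value of mt-Nd4l without WT1 fell from 2.09 to 0.45. With the copies in the sum, the ratio of mitochondrially to nuclear-encoded CPM was 0.16, 0.534 and 0.493 in WT. In KO it was 0.658, 0.644 and 0.698.

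**Figure D5:**
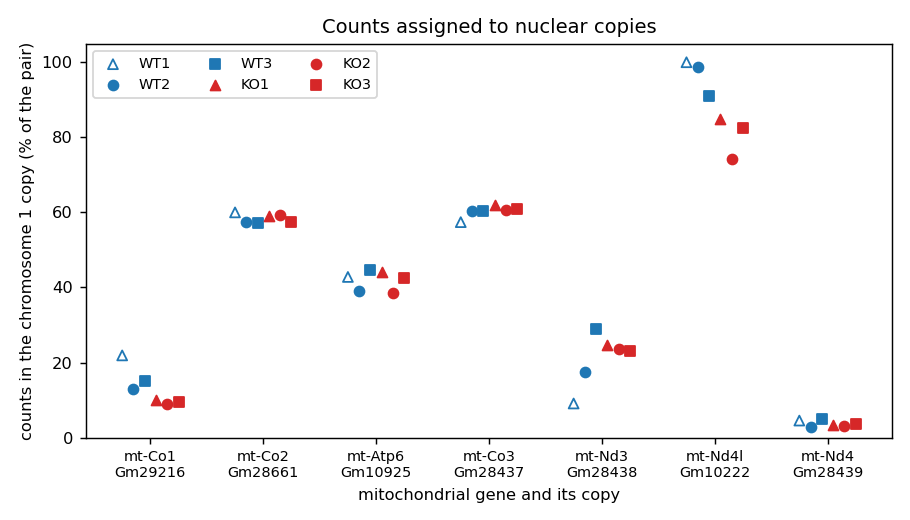
Counts assigned to the chromosome 1 copy as a percentage of the counts of the pair (vertical axis, from 0), for 7 mitochondrial genes in genome order, in each library. The share is similar in the 6 libraries for mt-Co2, mt-Atp6 and mt-Co3, and runs from 74.3% to 100% for mt-Nd4l and from 9.09% to 29% for mt-Nd3. For mt-Co1 it is 21.9%, 13% and 15% in WT and 10%, 8.91% and 9.61% in KO. For mt-Nd4l it is also lower in KO (74.3%, 82.5% and 84.8%) than in WT (91.1%, 98.6% and 100%). For mt-Co3 it is slightly higher in KO (60.7% to 61.9%) than in WT (57.4% to 60.4%).

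Genes that maintain, transcribe or process the mitochondrial genome were read from lists of related genes beside the subunits. Of 20 genes of mitochondrial DNA maintenance and transcription, 0 were called by edgeR in either fit, with medians of -0.01 with all libraries and 0.02 without WT1. Polg, the mitochondrial DNA polymerase, had log2 fold changes of 0.30 (SE 0.28) and 0.03 (SE 0.06). Of 23 RNA processing and stability genes 0 were called, with medians of 0.01 and -0.02. The 12 biogenesis regulators also had 0 called, where 0.03% and 1.82% of all genes were called in these fits. They summed to 651.8 to 661.1 CPM in WT and 661.7 to 706.6 CPM in KO. At an unadjusted p under 0.05 they numbered 0 with all libraries and 4 without WT1. Of these, named after their values were seen, Ppargc1b (0.90, SE 0.37), Gabpb1 (0.33, SE 0.10) and Prkaa1 (0.22, SE 0.10) had positive values, and Nfe2l2 (-0.22, SE 0.10) a negative one. The shares of all genes at that threshold were 8.07% higher and 5.6% lower. Of 14 genes of the tricarboxylic acid cycle 0 were called and 2 lay under the unadjusted threshold without WT1, and citrate synthase (Cs) had values of 0.25 (SE 0.19) and 0.07 (SE 0.06). The assembly lists of complexes I to V had 0 called as well, and 0 to 1 each under the unadjusted threshold without WT1. The mitochondrial ribosomal RNAs had positive values: mt-Rnr2 0.37 (SE 0.16) with all libraries and 0.28 (SE 0.13) without WT1, and mt-Rnr1 0.60 (SE 0.24) and 0.42 (SE 0.14), neither called.

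Sums of T cell and epithelial markers were lower in every KO library than in every WT library. The 5 T cell markers in the table summed to 146 to 190 CPM in WT and 105 to 116 CPM in KO, and the 8 epithelial markers to 31.4 to 83.1 CPM in WT and 10.1 to 24.1 CPM in KO. Without WT1, edgeR called Cd3g, Trbc2 and Epcam lower in KO. The 2 erythroid markers in the table went the other way, with sums of 3.01 to 4.13 CPM in WT and 4.45 to 5.98 CPM in KO. For the B cell, macrophage and dendritic, granulocyte and mast, and endothelial lists the sums of the groups overlapped. The fibroblast list was at or near 0 in every library. Among the ILC2 markers, edgeR without WT1 called Il5 (0.29, SE 0.06, adjusted p = 0.0332) and Il2ra (0.31, SE 0.06, adjusted p = 0.0200) higher in KO. With all libraries these stood at -0.02 (SE 0.22) and 0.32 (SE 0.10) and were not called. At an unadjusted p under 0.05, 6 of the 13 ILC2 markers passed without WT1 (5 higher and 1 lower) and 2 with all libraries. The part of these marker differences in the respiratory chain values was not tested.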

How the data were processed

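RNA sequencing of sorted, cultured and IL-33-treated lung ILC2s was analysed in 6 samples, grouped by genotype from the labels. The authors deposited estimated counts per gene, not normalized, as judged from the values (60.2% of non-zero values are whole within 0.001). Per the submitters' processing notes, the tools were Partek 10.0, STAR 2.7.8 and DESeq2, on mm10. Which counter, annotation and strand setting were used is not given.

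Estimated counts were rounded and tested in R 4.3.3 with edgeR 4.0.16 (robust quasi-likelihood fit, TMM, filterByExpr with a minimum count of 10 and a minimum total of 15, genotype as the only term). Benjamini-Hochberg adjustment ran over all tested genes, with calls at an adjusted p under 0.05. DESeq2 1.42.0 and limma 3.58.1 (voom with sample quality weights) were alternatives. CPM were scaled to TMM library sizes. Of the symbols, 17225 matched the GRCm38 annotation (GENCODE) and 213 did not. Levels per kilobase and the WT1 ratio by length used the principal (APPRIS) transcript, where several tied the best supported and then the longest, and the fit with a length trend used the longest annotated transcript. Shares of paralogues were also computed with the shortest principal transcript and without length, chosen after the data were seen. Scripts were tested on simulated data.

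The NRF1 motif was searched as a palindrome first and then with any base at its sixth position. The members, the gene lists and the fit without WT1 were chosen with earlier results of these data known. Named nuclear members are those called in any fit, the highest per kilobase and most extreme fold changes of each complex, paralogue groups, and members that failed the filter; the others named are said to be so or are copies and markers a result turns on. Near-copies were sought among annotated transcripts with blastn at 95% identity. Hits first had to cover 80% of the member. After those were seen, hits over 80% of either sequence with at least 150 aligned bases were taken. The fit with copies summed was added after that, and merged only chromosome 1 copies at least 99% identical. No replicates agreed within sampling noise (chi-square per gene 4.73 to 120). The values of 1 nuclear-encoded member are not reported here by name.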

Additional observations from a re-analysis of the deposited data

Results flagged for a closer look

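Ndufb1-ps was left out by the rule on names but held 8129 counts over the 6 libraries, far above the other 10 names left out (15 to 394 counts). It was measured on 1325, 1017 and 2155 counts in WT and 1102, 1209 and 1321 in KO. RefSeq lists the name as a synonym of Ndufb1, a protein-coding subunit of complex I, while the GRCm38 annotation calls it a long non-coding RNA. It was picked out by hand from the names left out.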

How the results depend on the processing

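Beside the fit reported, 15 other settings were tried, and 10 more were added after the data were seen, on the fit without WT1 or with copies summed, besides other transcript lengths for the shares of paralogues. Genes called numbered 4 with all libraries, 102 with DESeq2, 95 with limma-voom weights, 0 with the replicate block and 0 to 248 when each library was left out in turn. Without WT1 they numbered 413 with DESeq2, 228 with a length trend, 570 with the replicate block, 247 with copies summed and 65 to 517 when a further library was left out. Mitochondrially encoded genes called numbered 0 in every setting with all libraries and 0 to 2 when each library was left out. Without WT1 they numbered 7 with DESeq2, 4 with a length trend, 6 with the replicate block, 4 with copies summed and 0 to 5 when a further library was left out. No nuclear-encoded subunit was called in any of these settings.

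The difference between the genomes' medians stayed positive in all of them, from 0.33 to 1.26. The yardstick for its stability is an SD of 0.80 between libraries that WT1 itself widens, so the change from 0.93 to 0.41 without WT1 should be read from the values. No mitochondrially encoded gene changed sign. Of the nuclear-encoded subunits, 19 had another sign without WT1 than with all libraries, 16 of them from negative to positive, and these included values with all libraries of -0.49 (Cycs) and -0.37 (Ndufb8). Among the subunits recomputed by name, values ran from -0.01 to 0.33 for Atp5b when each library was left out in turn, -0.04 to 0.21 for Atp5g3, -0.71 to 0.04 for Cycs, -0.48 to 0.004 for Ndufa1, -0.40 to 0.02 for Ndufa2, -0.56 to 0.01 for Ndufb8, -0.47 to 0.004 for Uqcrb and -0.32 to 0.50 for Cox6b2 (58 counts in all), which was -0.05 with the replicate block. With limma-voom weights Atp5g3 was -0.03 and Cycs 0.01, and with a length trend Atp5g2 was 0.07 and Cox6a1 0.08. The cause was not tested. Same-numbered WT and KO samples did not deviate together with all libraries (r from -0.0461 to -0.00911). WT1 shifts the WT mean from which WT2 and WT3 deviate. Without WT1 this check was not run, so pairing of the other samples could be missed. The replicate block pairs samples by number only. Without WT1, KO1 has no partner in it and adds nothing to its fold changes.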
